A study of Mus musculus with 2 samples.

Results

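The 9 genes described here write, copy or erase DNA methylation, or supply the enzymes that do, and were followed in RNA-seq of bone marrow (BM) LSKs, the lineage-negative Sca1+ c-Kit+ fraction that contains the hematopoietic stem and progenitor cells. They were chosen by name, as the 9 rows of 34745 that carry the symbols Dnmt1, Dnmt3a, Dnmt3b, Uhrf1, Tet1, Tet2, Tet3, Idh1 and Idh2, and all 9 had reads in both libraries. The mice were Scl/tTA-BA double transgenics of the C57BL/6 strain, in which a tetracycline transactivator driven by Scl regulatory sequence switches on BCR/ABL (BA) once doxycycline is taken out of the drinking water. LSKs of 3 mice were mixed into 1 library at week-0, from mice still on doxycycline, and LSKs of 3 mice into 1 library at week-3 after withdrawal. Both groups carried both transgenes, so BA induction and the time off doxycycline cannot be told apart. Sex and age of the mice were not given in the sources used here.

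DNA methylation in mammals sits mainly on the cytosine of CpG dinucleotides. Dnmt3a and Dnmt3b place the mark on unmethylated DNA, and Dnmt1, brought to newly replicated DNA by Uhrf1, copies it onto the daughter strand. The TET dioxygenases oxidise the methyl group as the first step of its removal and need 2-oxoglutarate, which the NADP-dependent isocitrate dehydrogenases Idh1 (cytosol) and Idh2 (mitochondria) can make. DNMT3A and TET2 are among the genes most often mutated in clonal hematopoiesis, and IDH1 and IDH2 are mutated in a part of acute myeloid leukemias. The values below are amounts of RNA and give no measure of methylation itself.

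Reads counted on genes numbered 6356164 at week-0 and 3886695 at week-3. Each value is a read count and an FPKM (the reads of a gene divided by its exon length in kilobases and by the library's total in units of 1000000), with an exact 95% interval that covers counting error only, because reads of amplified cDNA can come from the same molecule and no second library exists at either time. No test between the time points was possible, so a gene is described as past a limit when its FPKM differed by at least 2 times. Genes with at least 20 reads over the 2 libraries together, 12192 in all, served as background, and their median log2 ratio of week-3 over week-0 was 0.07. The libraries also differed in marker genes of cells outside or at the edge of the gate. The 8 mast cell markers went from 129 to 3961 reads per 1000000, with 2 of them at 0 at week-0, and the 8 mature myeloid markers to 367 and 1580. The 7 erythroid markers went the other way, from 1406 to 91.9, as did the 8 B lineage and plasma cell markers, from 937 to 88.2, and 11 immediate-early genes, from 34982 to 9959. The 6 T cell markers were at 51.9 and 26.8, of which only Lck, with 313 and 100 reads, reached 20 reads over both libraries. Kit, with 1391 and 580 reads, and Ly6a (Sca1), with 434 and 199, were present in both libraries. The part of these differences in any value below was not tested, and in mixed RNA a change in the share of a cell type and a change of RNA per cell cannot be told apart.

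Of the 9 genes, 1 was higher at week-3 by at least 2 times (Idh1) and 1 was lower by as much (Tet1). Among all 12192 genes, 10.6% were higher and 15.6% were lower by at least 2 times, so neither count stands out from the background. With a limit of 1.5 times, Idh1 was again alone above it (background 23.7%), and Tet1 and Tet3 lay below it (background 24.6%). The counting interval was above 0 for 5 genes, Idh1, Idh2, Uhrf1, Dnmt3a and Dnmt3b (background 34.0%). It was below 0 for 2, Tet1 and Tet3 (background 28.5%), and it held 0 for Dnmt1 and Tet2. These intervals hold no spread between mice. In edgeR's exact test with q under 0.05 and an assumed biological coefficient of variation of 0.2, 1 gene was higher and 0 were lower.

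**Figure D1:**
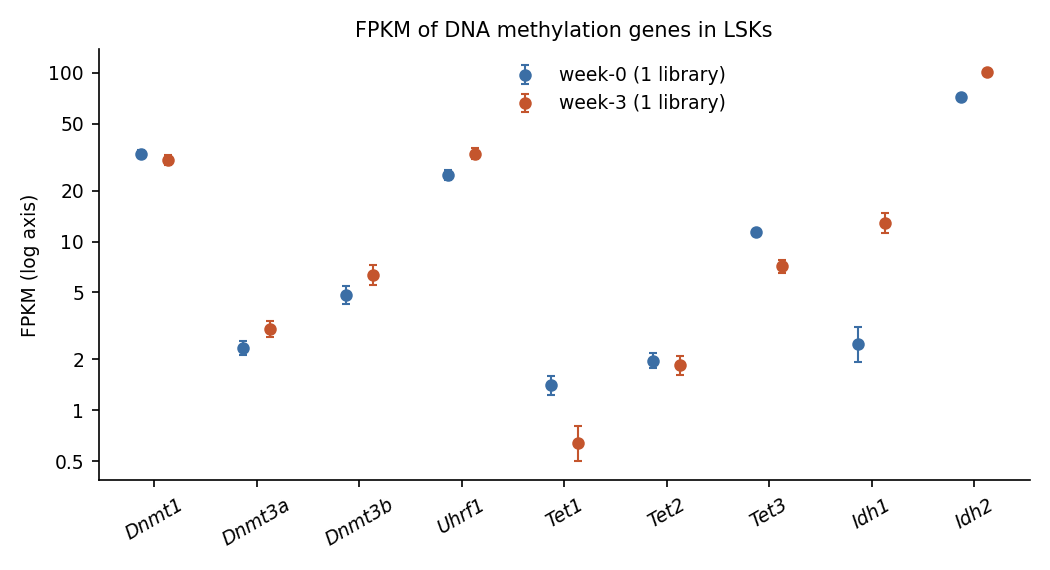
FPKM (log axis) of each of the 9 genes in the week-0 library (blue) and the week-3 library (orange), 1 library each, with exact Poisson 95% intervals of the read counts. Idh1 moved from 2.47 to 12.9 and Tet1 from 1.40 to 0.641, while Dnmt1 and Tet2 have overlapping intervals.

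Dnmt1 (ENSMUSG00000004099, chromosome 9 in build GRCm38, minus strand, from 20907206 to 20959888), the maintenance methyltransferase, was covered by 1343 reads (FPKM 33.1) in the week-0 library and by 755 (30.4) in the week-3 library. Its log2 ratio was -0.12 (95% interval -0.25 to 0.01), so a difference was not detectable with scaling by total reads. With TMM or median-of-ratios scaling, 2 other ways to make libraries comparable, Dnmt1 was at -0.20 and -0.21, with intervals below 0. Uhrf1 (ENSMUSG00000001228, plus strand of chromosome 17, from 56303321 to 56323486), which binds hemimethylated CpG and recruits Dnmt1, was covered by 832 reads (FPKM 24.7) at week-0 and by 684 (33.2) at week-3. Its log2 ratio was 0.43 (0.28 to 0.57). The enzyme and its recruiter therefore did not move together. Dnmt1 was above Uhrf1 at week-0, with an FPKM ratio of 1.34, and below it at week-3, with a ratio of 0.918 and overlapping intervals. This turn holds only for the exon lengths in the deposited FPKM, since with GENCODE M21 exon unions Uhrf1 was above Dnmt1 at week-0 too, at 30.7 against 28.6 with overlapping intervals.

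RefSeq (build GRCm38.p6) lists 2 starts for Uhrf1 and 3 for Dnmt1. The 200 bases before each start of the 9 genes were searched on both strands for 4 spellings of the core E2F element, namely TTCCCGC with its variant TTGGCGC, then TTCGCGC with its variant TTGCCGC, since E2F factors switch on many genes of S phase. One of the spellings was found before 3 of the 15 starts, 2 of Uhrf1 and 1 of Dnmt1, against 6.79% of the 32851 starts in the table. Each of the 4 spellings contains a CpG, and 14 of the 15 starts held more CpG than the median of all starts. The comparison was not matched for CpG number. The stretch before each Uhrf1 start is shown because both carry a spelling, TTCCCGC before the first (chr17:56303137-56303336, plus strand) and TTCGCGC before the second (chr17:56304113-56304312, plus strand). Capitals mark CpG, the dinucleotide that these proteins read, with 9 in the first stretch and 25 in the second.
Uhrf1 start 1: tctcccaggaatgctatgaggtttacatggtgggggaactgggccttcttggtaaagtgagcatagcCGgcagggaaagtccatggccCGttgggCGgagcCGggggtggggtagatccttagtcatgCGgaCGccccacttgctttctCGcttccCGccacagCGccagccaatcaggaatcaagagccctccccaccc
Uhrf1 start 2: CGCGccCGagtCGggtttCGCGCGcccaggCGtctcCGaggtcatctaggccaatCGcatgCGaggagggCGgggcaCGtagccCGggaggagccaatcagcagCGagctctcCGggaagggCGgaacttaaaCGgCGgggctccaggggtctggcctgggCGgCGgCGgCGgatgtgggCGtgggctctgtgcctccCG

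The de novo enzymes had similar log2 ratios between these 2 libraries. Dnmt3a (ENSMUSG00000020661, plus strand of chromosome 12, from 3806007 to 3914443) counted 433 reads (FPKM 2.33) at week-0 and 345 (3.04) at week-3, a log2 ratio of 0.38 (0.17 to 0.59). Dnmt3b (ENSMUSG00000027478, plus strand of chromosome 2, from 153649450 to 153687730) counted 275 reads (4.81), then 221 (6.32), a log2 ratio of 0.39 (0.13 to 0.65). In both genes week-3 was the higher library, by about 1.3 times. The FPKM of Dnmt3b stayed above that of Dnmt3a by the same factor, 2.06 at week-0 and 2.08 at week-3. With the 3 methyltransferases added together, the FPKM sum went from 40.3 to 39.8, of which Dnmt1 made up 82.3% and 76.5%. These shares rest on the exon lengths inside the deposited FPKM. The summed reads of the 3 methyltransferases had a log2 ratio of 0.07 (-0.03 to 0.18), equal to the median of all genes at this precision.

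Of the TET genes, Tet1 was lower at week-3 by more than 2 times, Tet3 by less than that, and Tet2 could not be told apart from its week-0 level. Tet1 (ENSMUSG00000047146, minus strand of chromosome 10, from 62804570 to 62899118) dropped from 258 reads (FPKM 1.40) to 72 (0.641), a log2 ratio of -1.13 (-1.53 to -0.75). With a pseudocount of 1 added to the FPKM the ratio was -0.55, which is not past the limit. Tet1 was the scarcest of the 9 in both libraries, and its ratio was number 1642 from the lowest among the background genes. Tet3 (ENSMUSG00000034832, minus strand of chromosome 6, from 83362373 to 83459084) was the most abundant TET, with 1372 reads (FPKM 11.3) before and 529 (7.13) after withdrawal. Its log2 ratio was -0.67 (-0.81 to -0.52), short of the limit of 2 times. A separately listed transcript inside Tet3 on the same strand, 5430434F05Rik, had 100 and 36 reads, and how reads were divided between the 2 is not known. Tet2 (ENSMUSG00000040943, minus strand of chromosome 3, from 133463679 to 133545139) counted 374 reads (FPKM 1.96), then 215 (1.85). Its log2 ratio of -0.09 (-0.34 to 0.16) shows no detectable difference at this depth.

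Summed over the 3 TET genes, the FPKM went from 14.7 to 9.62, and their reads had a log2 ratio of -0.59 (-0.71 to -0.47). Tet3 supplied 77.1% of the sum at week-0 and 74.2% at week-3, while the part of Tet2 went from 13.4% to 19.2% and that of Tet1 from 9.56% to 6.66%. The methyltransferase sum was 2.74 times the TET sum at week-0 and 4.14 times at week-3. This shift came from the TET side, since the methyltransferase sum hardly differed. The sums and shares rest on the exon lengths inside the deposited FPKM. Those lengths were 1.87 times the GENCODE M21 exon union for Tet1 but 1.14 times for Tet3.

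Tet2 is shown for the density of CpG before its start, the highest of the 9 genes. Its 200 bases (chr3:133544391-133544590, minus strand) hold 40 CpG, more than 99.8% of the 32851 starts, whose median was 5. Of the 15 starts of the 9 genes, 14 were above that median, and the exception was 1 of the 3 Dnmt1 starts, with 1 CpG. Whether these stretches are methylated in LSKs was not measured.
Tet2 start: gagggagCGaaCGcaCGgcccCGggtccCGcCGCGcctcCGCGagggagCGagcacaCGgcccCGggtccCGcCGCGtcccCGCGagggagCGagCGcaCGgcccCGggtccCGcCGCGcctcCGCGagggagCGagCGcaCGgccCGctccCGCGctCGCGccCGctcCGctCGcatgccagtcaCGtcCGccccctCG

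Idh1 had the largest difference of the 9. It (ENSMUSG00000025950, minus strand of chromosome 1, from 65158616 to 65186500) went from 71 reads (FPKM 2.47) to 226 (12.9), a log2 ratio of 2.38 (1.99 to 2.79), or 5.21 times (3.97 to 6.90). Its ratio was number 158 from the highest among the 12192 background genes. Its level was above that of 34.9% of these genes at week-0 and of 74.0% at week-3. Idh2 (ENSMUSG00000030541, minus strand of chromosome 7, from 80094846 to 80115392) went from 2349 reads (FPKM 71.5) to 2027 (101), a log2 ratio of 0.50 (0.41 to 0.58). It was the most abundant of the 9 in both libraries. The mitochondrial gene exceeded the cytosolic one by 28.9 times in FPKM at week-0 and by 7.85 times at week-3. The mast cell and mature myeloid markers given above were also higher at week-3, and their part in the Idh1 value was not tested.

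The upstream start of Idh1 (chr1:65186480-65186679, minus strand) is shown beside the others because its gene had the largest difference. It holds 10 CpG, more than 65.8% of all starts, and none of the 4 E2F spellings.
Idh1 start: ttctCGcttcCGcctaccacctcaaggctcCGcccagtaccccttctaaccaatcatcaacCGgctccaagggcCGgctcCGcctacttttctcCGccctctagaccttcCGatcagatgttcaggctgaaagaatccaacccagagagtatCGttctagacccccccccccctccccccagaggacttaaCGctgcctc

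**Figure D2:**
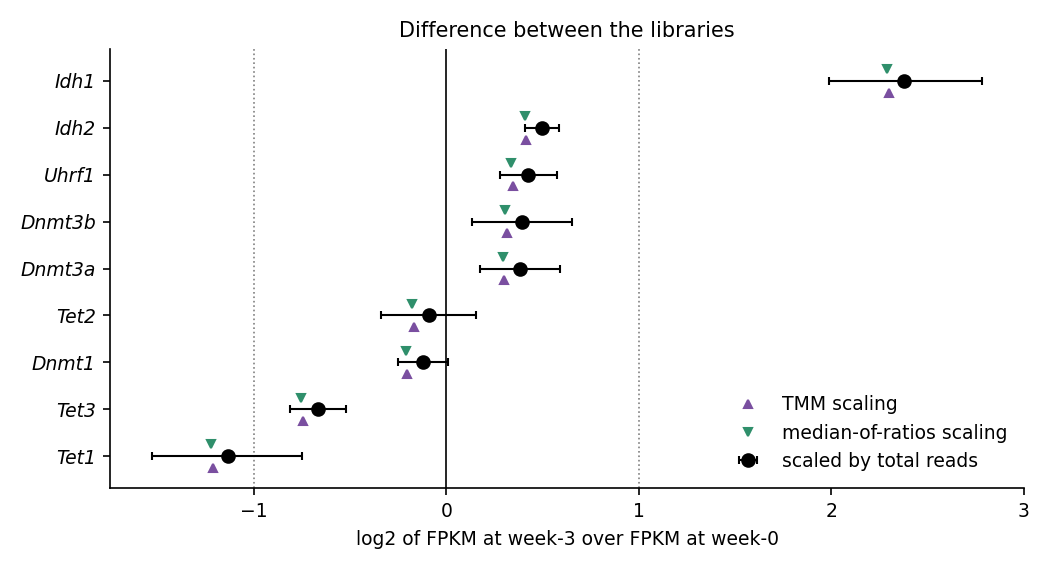
Log2 ratio of FPKM at week-3 over week-0 for each gene, with exact Clopper-Pearson 95% intervals from the reads of the 2 libraries (black), and the same ratio with TMM (up triangles) and median-of-ratios scaling (down triangles). Dotted lines mark 2 times higher and lower, which Idh1 at 2.38 and Tet1 at -1.13 pass with each scaling.

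**Figure D3:**
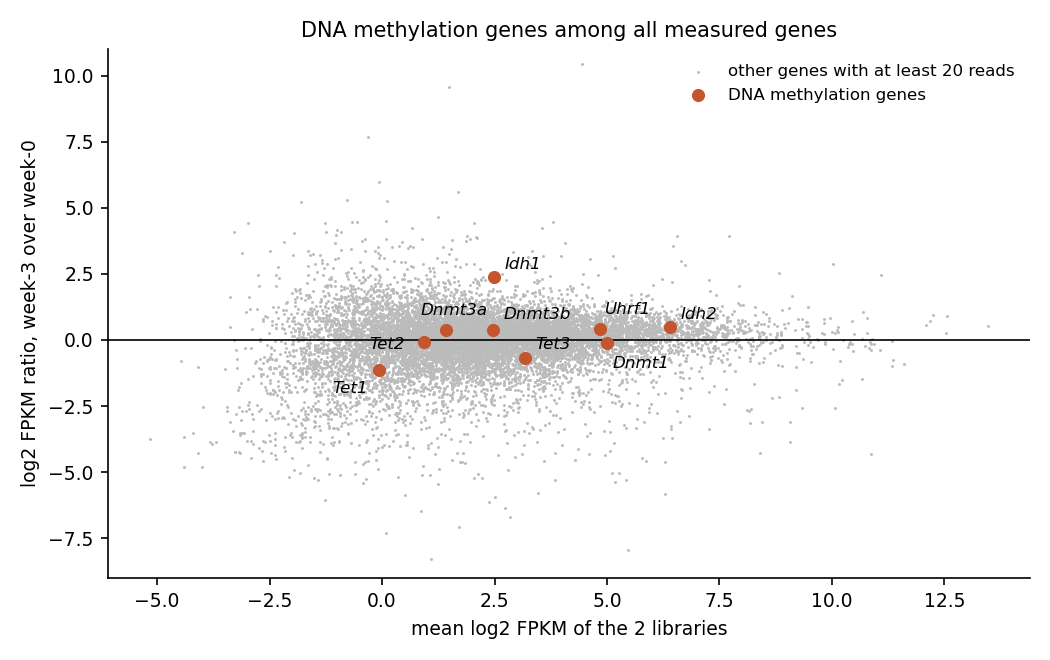
Log2 FPKM ratio (week-3 over week-0) against the mean log2 FPKM of the 2 libraries for genes with at least 20 reads (grey) and the 9 DNA methylation genes (orange), leaving out 9 genes at 0 at week-0 and 101 at 0 at week-3. Idh1 lies highest of the 9 at 2.38 and Tet1 lowest at -1.13.

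Ranked by FPKM at week-0, Idh2 was followed by Dnmt1, Uhrf1, Tet3, Dnmt3b, Idh1, Dnmt3a, Tet2 and Tet1. Idh1 and Dnmt3a had overlapping intervals there, as did Dnmt3a and Tet2, and the other neighbours were apart. At week-3 the order was Idh2, Uhrf1, Dnmt1, Idh1, Tet3, Dnmt3b, Dnmt3a, Tet2 and Tet1, with overlap between Uhrf1 and Dnmt1 and between Tet3 and Dnmt3b. By FPKM, Idh1 thus passed from place 6 to place 4, though its week-0 interval (1.93 to 3.12) also overlapped that of Tet2 (1.77 to 2.17). The order rests on the exon lengths inside the deposited FPKM. With the exon union of GENCODE M21 as length, 5 of the 9 genes kept their place at week-0, and Uhrf1 came before Dnmt1 at both times. On that length Idh1 was at place 7 at week-0 and at place 4 at week-3. The genes nearest to Dnmt1 in log2 FPKM of the 2 libraries were Timm17b, a mitochondrial import subunit (33.0 and 30.5), Cdkn3 (33.2 and 31.0) and Serf2 (33.6 and 30.7). Nearest to Tet2 were Gm38372, Cdk5rap2 and Hacl1, and nearest to Idh2 were Fcf1, Ccdc85b and Ndufa12. With 2 libraries, such likeness is a match of levels only.

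A ratio of the reads of 2 genes within a library does not depend on how libraries are scaled, and it was compared between the time points for 8 pairs. For 7 of the 8 the exact interval of the change was off 0. The pairs share genes, and the share over pairs of other genes was not computed. Among single background genes, 34.0% had an interval above 0 and 28.5% below it. The count of pairs is therefore not a result about these genes. Relative to Dnmt1, Uhrf1 was higher at week-3 by 0.55 on the log2 scale (0.35 to 0.75), Dnmt3a by 0.50 (0.26 to 0.75) and Dnmt3b by 0.52 (0.22 to 0.81). Dnmt3a against Dnmt3b was the pair without a detectable change, at -0.01 (-0.35 to 0.32), an interval that leaves room for a shift either way. Tet2 was higher relative to Tet1 by 1.04 (0.58 to 1.51) and relative to Tet3 by 0.58 (0.29 to 0.86), so the TET genes differed among themselves. Tet3 against Tet1 changed by 0.47 (0.05 to 0.89). The largest change was that of Idh1 against Idh2, 1.88 (1.48 to 2.30).

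**Figure D4:**
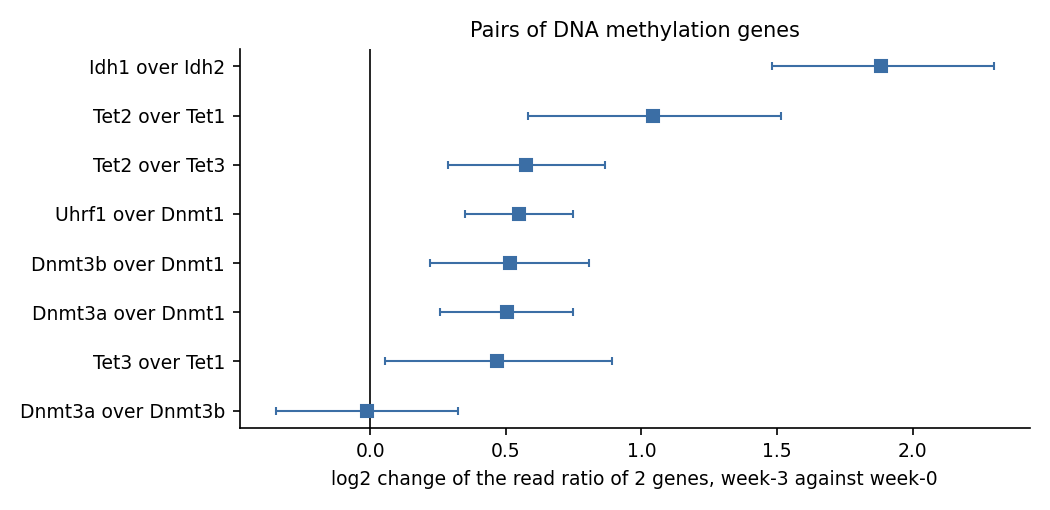
Change between the libraries in the ratio of reads of 2 genes, on the log2 scale, with exact conditional 95% intervals, where a positive value means that the gene named first was relatively higher at week-3. Idh1 over Idh2 changed most, at 1.88, and Dnmt3a over Dnmt3b lies at -0.01 with an interval across 0.

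Genes that work with the 9 were taken as lists, each described by counts against the same background (10.6% higher and 15.6% lower by at least 2 times). Of 17 maintenance and targeting partners, 15 had at least 20 reads, of which 2 were higher by at least 2 times and 0 were lower, with a median log2 ratio of 0.34. The 2 were Hells, a chromatin remodeler needed for DNA methylation (196 and 254 reads, FPKM 3.67 and 7.79, log2 ratio 1.08), and the tRNA methyltransferase Trdmt1 (30 and 38 reads, 1.05). With TMM scaling 1 gene of this list was past the limit, and with median-of-ratios scaling 0 were. Pcna, the replication clamp and the most abundant of the list, was at 52.9 and 59.2. Zfp57, which guards imprinted methylation, had the lowest ratio, -0.45, on 38 and 17 reads (-1.37 to 0.41). Dnmt3l, the catalytically inactive partner of the de novo enzymes, had no more than 8 reads, all of them at week-3, and was below the count minimum.

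Among 8 methyl-CpG readers, 2 were higher and 1 was lower by at least 2 times, with a median of 0.28. Mbd4, a glycosylase that removes mismatched thymine at CpG, had 42 and 57 reads (log2 ratio 1.15, 0.55 to 1.76), and Mbd2 had 64 and 82 (1.07, 0.58 to 1.56). Mbd2 was no longer past the limit with TMM or median-of-ratios scaling, which left 1 reader higher. Zbtb33 (Kaiso) was lower, on 55 and 10 reads (-1.75, -2.89 to -0.76). Mbd3, a subunit of the NuRD complex, was the most abundant, at an FPKM of 17.3 and 23.2.

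Of 18 TET partners and base excision genes, 15 were measured, with 1 higher, 1 lower and a median of 0.20. Smug1, a uracil glycosylase, was higher on only 10 and 25 reads (2.03, 0.92 to 3.25). Gadd45b, a stress-induced gene linked to active demethylation, was at 1331 and 94 reads, with FPKM values of 165 and 19.1 (-3.11, -3.43 to -2.81). This was the largest difference in the 6 lists, and it was in the direction of the immediate-early genes given above, whose part in it was not tested.

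In the S-adenosylmethionine cycle, which supplies the methyl donor, 9 of 13 genes were measured and 0 passed the limit in either direction, with a median of 0.41. The largest ratio was that of Mtr, the methionine synthase (71 and 86 reads, 0.99, 0.52 to 1.46). Ahcy, which clears S-adenosylhomocysteine, had the highest level, 40.5 and 62.2 (0.62, 0.47 to 0.76). For 2-oxoglutarate metabolism, all 18 genes were measured, 1 was higher by 2 times and 0 were lower, with a median of 0.40. Idh3g, a subunit of the NAD-dependent isocitrate dehydrogenase, was lowest (-0.28, -0.38 to -0.19), and Sdhd was most abundant, at 148 and 208. The log2 ratio of Idh1, 2.38, was above that of every gene in this list.

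Dnmt1 and Uhrf1 are transcribed most in cycling cells, so 17 S-phase and proliferation genes were set beside them. All 17 were measured, 2 were higher by 2 times and 0 were lower, with a median of 0.22. Rrm2, a subunit of ribonucleotide reductase, was at an FPKM of 10.4 and 45.5 (2.12, 1.91 to 2.34), and Cdc6, a licensing factor, at 1.52 and 4.09. Mcm5, of the replicative helicase, was at 64.6 and 79.0 (0.29), and Ccna2 was the lowest of the list (-0.69, -0.86 to -0.52). The ratio of Uhrf1, 0.43, lay above the list's median and that of Dnmt1, -0.12, below it.

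**Figure D5:**
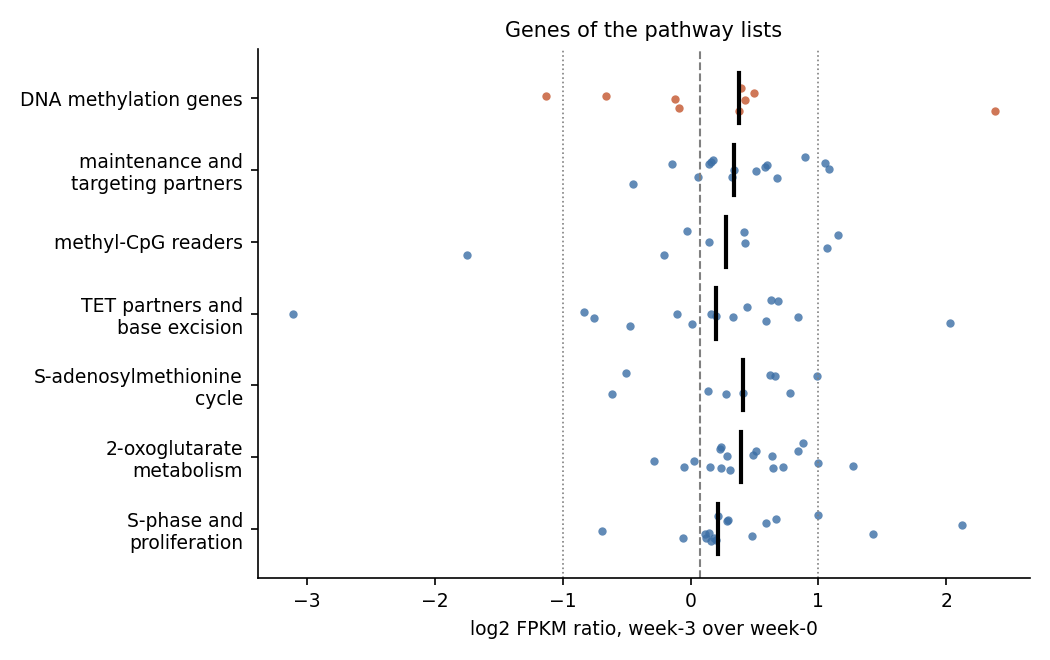
Log2 FPKM ratio (week-3 over week-0) of each gene with at least 20 reads in the 9 DNA methylation genes (orange) and the 6 lists (blue), with the median of each as a black bar, the median of all genes (0.07) dashed and 2 times higher and lower dotted. The list medians lie between 0.20 and 0.41, and whether they differ from the median of all genes was not tested. Each list has genes both higher and lower at week-3. Gadd45b at -3.11 and Idh1 at 2.38 lie farthest out.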

How the data were processed

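LSKs were profiled by RNA-seq, with 1 library of 3 mixed mice at each time. The authors prepared cDNA with a SMARTer low-input kit, which keeps no strand information, and mapped trimmed pairs to GRCm38 (mm10 in the submitters' processing notes) with TopHat2 2.0.9. They deposited, per gene, raw read counts and FPKM scaled by exon length and total reads. The counting tool and annotation release were not given in the sources used here.

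Tables were joined by gene identifier, and 1 list gene (Pclaf) was matched through its identifier. Ratios are FPKM ratios without a pseudocount, with Clopper-Pearson intervals from the reads of both libraries, Poisson intervals for levels and exact conditional intervals for pairs. The count minimum was 20 reads over both libraries. A count test with edgeR 4.0.16 under assumed variation and the size factors of DESeq2 1.42.0 were alternatives (R 4.3.3). Python 3.11.15, pandas 2.3.3 and scipy 1.17.1 were used. Each procedure was tested on simulated data. Strand, overlaps and exon lengths come from GENCODE M21, promoters from RefSeq GRCm38.p6, in which all 9 genes were matched. Protein sequences were not used here.

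The genes, lists, pairs and limits were chosen with earlier results of these data known. Named list genes are those with the largest and smallest ratio and the highest mean FPKM of each list. Trdmt1, Mbd2, Cdc6 and Dnmt3l fall outside this rule and were named after their values were seen. Results for 2 further genes under the rule are not reported here.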

Additional observations from a re-analysis of the deposited data

How the results depend on the processing

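No paired analysis was possible because each time point has 1 library, and for the same reason no library could be left out. TMM and median-of-ratios scaling lowered the log2 ratio of each gene by 0.08 and 0.09. Both left Idh1 and Tet1 as the genes past 2 times, but they moved the interval of Dnmt1 below 0, so that 3 genes were below 0 in place of 2. With median-of-ratios scaling the log2 ratio of Idh2 was 0.41, just outside its interval. With limits of 1.5 and 0.67, 2 genes were lower in place of 1. With a pseudocount of 1, the log2 ratio of Tet1 was -0.55 and 0 genes were lower by 2 times. Next, edgeR's exact test with q under 0.05 replaced the counting intervals, which changed the test and added an assumed variation at once. A biological coefficient of variation of 0.1 left 2 genes higher in place of 5, one of 0.2 left 1 higher and 0 lower, and one of 0.4 left 0 in either direction. Of 72 list counts under an alternative, 17 moved by over 1.5 times, and Hells, Trdmt1 and Mbd2 were no longer past 2 times with median-of-ratios scaling. The S-phase list's median was 0.14 with TMM and 0.13 with median-of-ratios scaling. Scaling lowers the median of all genes by the same amount, so the distance between the 2 medians did not change. Depth limits the scarcest genes most, with 71 reads for Idh1 at week-0 and 72 for Tet1 at week-3.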

Other observations

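The exon lengths behind the deposited FPKM can be read back as reads over FPKM and total, and for the 9 genes they differed from GENCODE M21. For Idh2 the length came to 5166 bases, against an exon union of 2588 bases, and for Tet1 to 28922 bases, 1.87 times the union. For Dnmt1 it was 6380 bases, 0.865 times the union. It was above the union for all the others of the 9, among them Idh1 (1.63 times), Uhrf1 (1.25 times) and Tet3 (1.14 times). Levels of these other genes relative to Dnmt1 are therefore lower in FPKM than per base of the exon union. The ratio of a gene between the libraries does not depend on its length. The tables end Tet1 at 62899118, while GENCODE M21 extends it to 62908996.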
